A study of Homo sapiens with 6 samples.

Results

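NRF2 (encoded by NFE2L2) and 8 of its antioxidant target genes, NQO1, HMOX1, GCLM, GCLC, TXNRD1, SRXN1, SLC7A11 and AKR1C1, were examined in Caki2 cells with and without PBRM1. These 9 genes were taken by symbol from the 25369 genes measured, and all 9 passed the filter on low values. Caki2 is a human clear cell renal cell carcinoma line that makes no PBRM1 protein, and PBRM1 is the bromodomain subunit that defines the PBAF chromatin remodeling complex. The control cells, Caki2+Vector, carried an empty doxycycline-inducible lentiviral vector, and the Caki2+PBRM1 cells carried the inducible vector with PBRM1. Both groups grew in 2 µg/ml doxycycline, and each was sequenced by RNA-Seq in 3 replicates (A, B and C). Both were infected cells kept as stable lines under drug selection, and whether the replicates came from separate infections or clones was not stated, so that p-values measure only the spread between these samples. The comparison asked which transcripts changed when PBRM1 was put back.

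NRF2 is a basic leucine zipper transcription factor that is held in the cytoplasm by KEAP1, which hands it to the CUL3 ubiquitin ligase for destruction. When electrophiles or oxidants modify KEAP1, NRF2 accumulates, pairs with small MAF proteins and binds antioxidant response elements near genes for detoxification, glutathione synthesis, thiol repair and NADPH supply. Most of its control is exerted on the protein, which RNA-Seq does not measure, so the transcripts of its targets are the usual readout of its activity. In kidney epithelium this program protects against oxidant injury, and it is active in some kidney tumors.

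Expression is given as normalized counts, which are reads per gene divided by a size factor per sample, without division by gene length. Libraries held 7312955 to 10835355 reads on genes. PBRM1 itself averaged 187 ± 7.4 normalized counts (SD, n = 3, as for each ± value here) in the control cells and 2545 ± 127 where it had been put back, which is 3.76 on the log2 scale. Of 6 renal epithelial markers, 5 had a mean normalized count of at least 10, and the carcinoma marker CA9, too low to be tested, was at 0 to 2.83 in the control cells and 6.71 to 15.2 in Caki2+PBRM1. The markers were not level between the groups: their sum was 13915 to 14797 in the control cells and 12552 to 13109 in Caki2+PBRM1. KRT8 and KRT18, epithelial keratins, were lower (log2 fold change -0.18 and -0.34) and NDUFA4L2, a HIF target, was higher (1.94). The other tested markers, PAX8 (0.018) and PAX2 (-0.26), did not reach an adjusted p under 0.05. The part of the marker shifts in the NRF2 results was not tested. The summed leukocyte and endothelial markers did not exceed 7.57 in any sample, with CD3E and CDH5 at 0 throughout, and the fibroblast markers summed to 20.8 to 25.8. Caki2+Vector A stood apart from the other controls, with a chi-square of gene counts, divided by its degrees of freedom, of 3.09 and 2.84 against B and C, compared with 1.34 between B and C and 1.19 to 1.22 within Caki2+PBRM1. In these bulk RNA samples, fewer cells making a transcript and less transcript per cell cannot be told apart.

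The antioxidant response element was searched for first, because it is the feature that links these genes to NRF2. The strict form TGANTCAGC, shared by NRF2 and BACH1 sites, was looked for on both strands in the 5 kb before the start of each gene's GENCODE canonical transcript on GRCh37. It was present for 4 of the 9 genes (44.4%), against 15.2% of 12100 tested genes with such a transcript. The matches lay upstream of NQO1, HMOX1, GCLC and SRXN1, and are shown on the strand of the gene with 10 bases on each side and the element in capitals. For HMOX1, a further match on the opposite strand began 2 bases before the one shown at 3160 bases and overlapped it.
NQO1, chr16:69760900-69760928, minus strand, 455 bases before the start: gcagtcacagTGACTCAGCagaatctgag
HMOX1, chr22:35773139-35773167, plus strand, 3940 bases before the start: gctagattttGCTGAGTCAccagtgcctc
HMOX1, chr22:35773919-35773947, plus strand, 3160 bases before the start: gtcaggaggcTGAATCAGCatgcgaaagg
GCLC, chr6:53413037-53413065, minus strand, 3156 bases before the start: cgcacaaagcGCTGAGTCAcggggaggcg
GCLC, chr6:53413242-53413270, minus strand, 3361 bases before the start: tcgcgaagccGCTGACTCAagggaaactg
SRXN1, chr20:634098-634126, minus strand, 272 bases before the start: aaactcacccTGAGTCAGCccgcccgggc

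Strict and looser refer here to how many bases are fixed, and the looser core TGACNNNGC takes in the strict form only where its N is C. For SRXN1, the 5 kb window held 1 strict match and 0 of the core. The looser core was common in the 5 kb windows, at 7 of the 9 genes (77.8%) and 84.0% of tested genes. It was therefore read only in the short RefSeq promoters (GRCh38.p14, from 250 bases before to 50 after a start). There the looser core was found on either strand in 3 of 9 promoter entries (33.3%), against 13.3% of 35116 entries. Among the 14448 entries of tested genes the share was 14.4%. The strict form was in none of the 9 entries, in 1.36% of the 35116 and in 1.09% of the 14448. The entries covered 7 of the genes, and HMOX1 and SLC7A11 had none. The looser core was in the GCLM promoter and in both TXNRD1 promoters, and the GCLM match and, for TXNRD1, one of 3 are shown to compare them with the strict form.
GCLM, chr1:93909446-93909474, minus strand, 34 bases before the start: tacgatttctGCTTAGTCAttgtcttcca
TXNRD1, chr12:104215670-104215698, plus strand, 99 bases before the start: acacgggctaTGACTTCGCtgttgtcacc
These letter matches are descriptions of the sequence, and binding was not measured.

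Of the 9 genes, NFE2L2, NQO1 and SLC7A11 rose and HMOX1 and AKR1C1 fell in Caki2+PBRM1, and GCLM, GCLC, TXNRD1 and SRXN1 did not pass the test (limma, adjusted p under 0.05 over 13303 genes). The share called, 5 of 9, stood beside 29.2% of all tested genes, and beside 44.4% of the 2028 tested genes with a mean normalized count of at least 1000, the range in which all 9 lie. By direction, 3 of 9 rose and 2 of 9 fell, beside 16.2% and 13.0% of all tested genes. The groups did not overlap for 6 of the 9, beside 41.7% of all tested genes. The shares by direction and of groups without overlap were not taken for genes with a mean of at least 1000 alone. The median log2 fold change of the 9 was 0.02, against -0.0036 for all tested genes, and their median size was 0.17, against 0.14. The largest change among the 9, that of AKR1C1, was a fall of 18.1%. Without Caki2+Vector A, the log2 differences of the 5 called genes were 0.15 for NFE2L2, 0.24 for NQO1, 0.18 for SLC7A11, -0.27 for HMOX1 and -0.30 for AKR1C1, and all 5 passed the test.

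**Figure D1:**
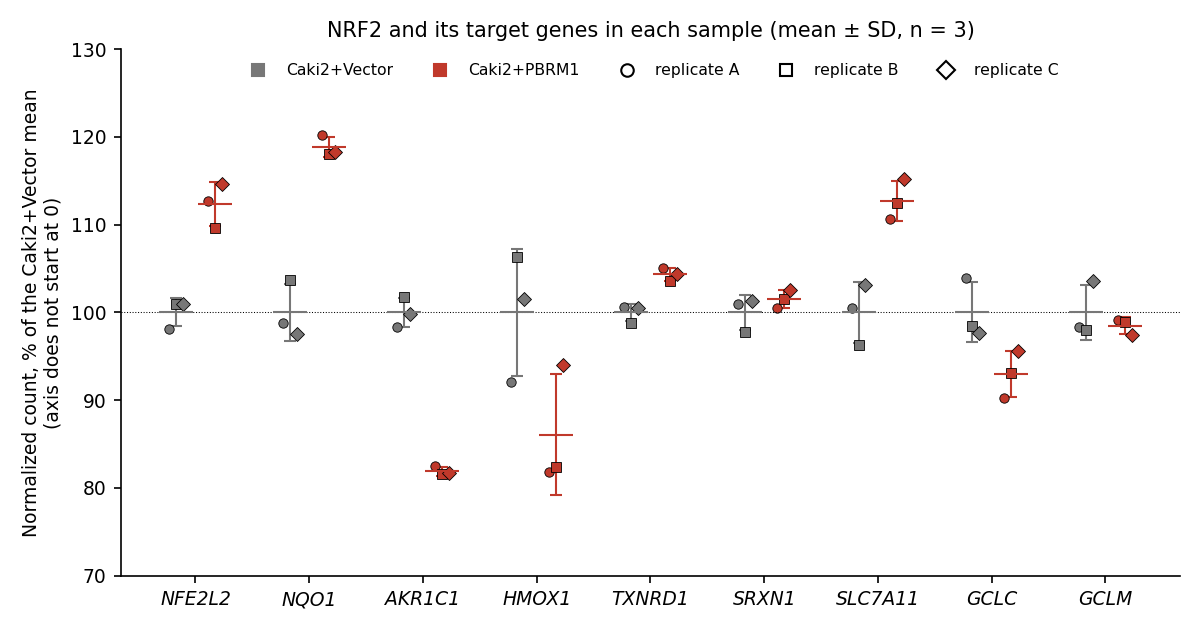
Normalized count of NFE2L2 and its 8 targets in each of the 6 samples, as a percent of the gene's Caki2+Vector mean on an axis that does not start at 0, with a marker per replicate and bars for the mean and SD (n = 3). NFE2L2, NQO1 and SLC7A11 sit higher in Caki2+PBRM1 and AKR1C1 sits lower without overlap, while the HMOX1 groups overlap.

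NFE2L2, which encodes the transcription factor itself (chr2:178083395-178257484, minus strand, GRCh37), rose slightly. Its normalized counts were 2072, 2130 and 2131 in the Caki2+Vector replicates and 2380, 2315 and 2420 in the Caki2+PBRM1 replicates. The lowest Caki2+PBRM1 sample lay above every control, and the log2 fold change was 0.17 (standard error, SE, 0.04, limma adjusted p = 0.00174), or 12.3% higher. Among genes with a mean of at least 100, the 3 whose centred log2 profile over the 6 samples came nearest to that of NFE2L2 were SERP1 (root mean square difference 0.01), PTPN14 (0.012) and AKR1B1 (0.013), out of 9678 compared. Small distances follow from picking the closest of so many genes over 6 samples, and no shared control with NFE2L2 is read from them.

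Transcripts for the proteins that set NRF2's level or share its sites moved in both directions. Of 15 regulators and partners, 14 were tested, and 4 rose and 4 fell (57.1% called, beside 29.2% of all tested genes). BACH1, a repressor that occupies the same elements and is best known for silencing HMOX1, rose from 717 ± 44.7 to 906 ± 25.1 (log2 fold change 0.34, adjusted p = 1.775e-05). SQSTM1, the autophagy adaptor p62 that sequesters KEAP1 and is itself an NRF2 target, rose by 0.22 on the log2 scale, and by 0.14 under quantile normalization (adjusted p = 0.00825). CUL3, the scaffold of the ligase that destroys NRF2, rose by 0.16, and the call was lost without Caki2+PBRM1 A (adjusted p = 0.0601). BACH2, a relative of BACH1, fell by 0.42, and NFE2L3, a relative of NRF2, fell by 0.24. BTRC, which encodes the receptor of a second ligase for NRF2, fell by 0.31, and this call was lost without Caki2+PBRM1 B (adjusted p = 0.0551).
KEAP1 showed no detectable change, at 775 ± 54.9 and 765 ± 21.0, with a log2 difference between -0.13 and 0.098 (95% interval). MAFG, a small MAF partner, was at 1885 and 1924 on average, with an interval from -0.057 to 0.12. The remaining calls, named after their values were seen, were those of GSK3B, the kinase that marks NRF2 for the BTRC ligase (0.15, adjusted p = 0.0405), and DPP3, a KEAP1-binding peptidase (-0.19, adjusted p = 0.0222). GSK3B lost its call with DESeq2 (adjusted p = 0.149), under quantile normalization and without the filter on low values (0.0557 each), without Caki2+Vector C (0.206) and without any one Caki2+PBRM1 library (0.0899 to 0.121), and DPP3 with DESeq2 (0.103) and without Caki2+Vector C (0.0784), Caki2+PBRM1 A (0.114) or Caki2+PBRM1 B (0.0629).

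NQO1, the quinone reductase that is the most widely used marker of NRF2 activity (chr16:69740899-69760571, minus strand), rose. It had 14639, 15356 and 14449 normalized counts in the Caki2+Vector replicates and 17810, 17489 and 17530 in the Caki2+PBRM1 replicates. Each Caki2+PBRM1 sample exceeded each control, with a log2 fold change of 0.25 (SE 0.03, with an adjusted p of 1.462e-07), or 18.9% higher. Its log2 fold change was the highest of the 9 under the deposited scaling, but under quantile normalization it was 0.092 (adjusted p = 0.0348), below those of SLC7A11 (0.18), NFE2L2 (0.13) and TXNRD1 (0.11). Its relative NQO2, which reduces quinones with another cosubstrate and is not a classical NRF2 target, went the other way, from 623 to 533 (log2 fold change -0.22, adjusted p = 0.00549), so that the NQO1 to NQO2 count ratio went from 23.8 ± 1.38 to 33.1 ± 1.37.

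AKR1C1, an aldo-keto reductase that inactivates progesterone and reduces lipid aldehydes (chr10:5005445-5025475, plus strand), had the highest count of the 9 and fell. Its normalized counts were 54261, 56126 and 55090 in the Caki2+Vector replicates and 45484, 44988 and 45039 in the Caki2+PBRM1 replicates. The groups lay far apart relative to their spread, with a log2 fold change of -0.29 (SE 0.025, with an adjusted p of 2.607e-10). Among all tested genes it ranked 2 by mean normalized count in Caki2+Vector and 5 in Caki2+PBRM1, and its share of all normalized counts went from 0.63% to 0.496%.
AKR1C1 has close paralogs, which limits how well its reads can be told apart. On GRCh37 its coding sequence matches that of AKR1C2 at 950 of 969 bases (98.0%) and that of AKR1C3 at 91.4%. Of its 870 coding windows of 100 bases, 164 (18.9%) also occur in AKR1C2 and 2.18% in AKR1C3, so part of its count is uncertain. For the other 8 genes, no transcript window of 100 bases occurred in a gene at another locus.
AKR1C2, whose product inactivates dihydrotestosterone, fell from 11604 ± 178 to 10514 ± 52.9 (log2 fold change -0.14, adjusted p = 0.000572, and -0.22 under quantile normalization). Of the AKR1C2 transcript windows of 100 bases, 27.8% occur in other genes, mostly in AKR1C1, so its count is uncertain too. For AKR1C1 that share was 12.6%. Whether AKR1C1 reads had a part in the fall of AKR1C2 was not tested. AKR1C3, whose product makes androgens and prostaglandins, was at 13501 ± 368 and 14075 ± 94.3 and did not pass the test (log2 difference 0.06, 95% interval -0.001 to 0.12). Its sign turned under quantile normalization (-0.03), and it passed without Caki2+Vector B (adjusted p = 0.048).
Summed over AKR1C1, AKR1C2 and AKR1C3, the counts were 79457, 81632 and 79704 in Caki2+Vector against 70115, 69516 and 69647 in Caki2+PBRM1. This sum does not depend on how the counted reads were assigned among these genes. Whether reads that match several of them were counted at all was not stated, and any left out are missing from the sum too. The sum was lower in every Caki2+PBRM1 sample (log2 fold change -0.20, SE 0.024, adjusted p = 1.044e-07). The AKR1C1 to AKR1C3 ratio went from 4.09 ± 0.079 to 3.21 ± 0.0054 and the AKR1C1 to AKR1C2 ratio from 4.75 ± 0.13 to 4.30 ± 0.047, each without overlap (two-sided exact permutation p = 0.1, the smallest that 3 against 3 allows).

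**Figure D2:**
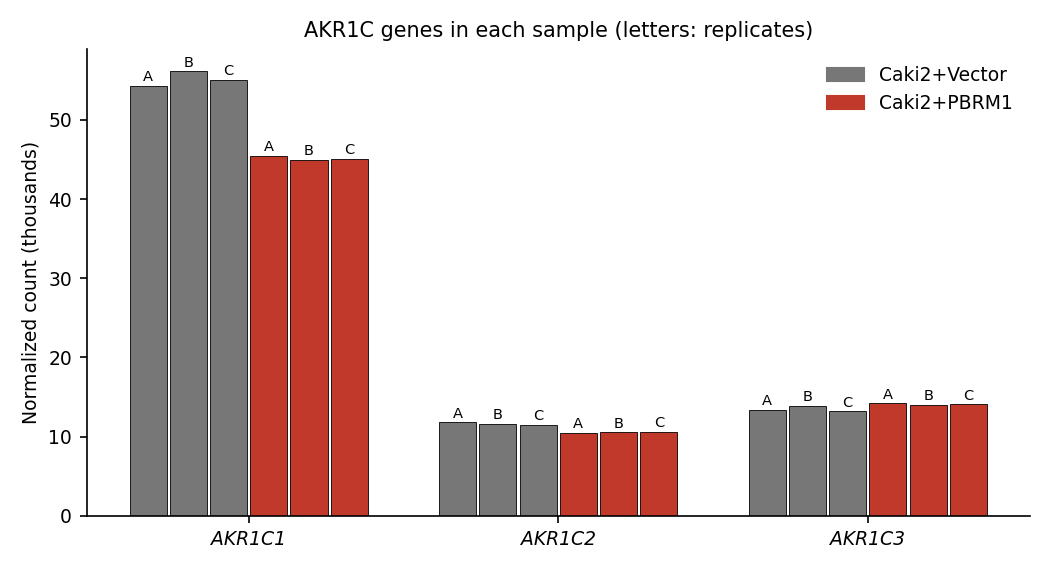
Normalized counts of AKR1C1, AKR1C2 and AKR1C3 in each sample, with a bar per replicate (letters A, B and C). AKR1C1 and AKR1C2 are lower in every Caki2+PBRM1 sample, while AKR1C3 is slightly higher and did not pass the test.

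Of 21 further genes of quinone and carbonyl detoxification, 20 were tested, and 5 rose and 3 fell. Those that rose were PTGR1 (log2 fold change 0.27), which reduces leukotriene and alkenal double bonds, the retinal dehydrogenase ALDH1A1 (0.26) and the epoxide hydrolase EPHX1 (0.18), and, named after their values were seen, aldose reductase AKR1B1 (0.17) and the fatty acid hydroxylase CYP4F11 (0.17). AKR1B1 lost its call under quantile normalization (0.077, adjusted p = 0.0539). Besides NQO2 and AKR1C2, the glucuronosyltransferase gene UGT1A6 fell by 0.18, and lost its call with DESeq2 (adjusted p = 0.104) and without Caki2+Vector C (0.0968), Caki2+PBRM1 A (0.159) or Caki2+PBRM1 C (0.0505). Exons of the UGT1A genes overlap, so its reads are also uncertain.

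HMOX1, the inducible heme oxygenase that splits heme into biliverdin, carbon monoxide and iron (chr22:35776354-35790207, plus strand), fell. It had 1771, 2044 and 1952 normalized counts in the Caki2+Vector replicates and 1574, 1584 and 1808 in the Caki2+PBRM1 replicates. The groups overlapped, since Caki2+PBRM1 C lay above Caki2+Vector A, and the spread of HMOX1 was the widest of the 9 (coefficient of variation 7.23% and 7.99%). The log2 fold change was -0.22 (SE 0.056, with an adjusted p of 0.00583), or 13.9% lower on the fitted scale. By the exact permutation test of the normalized counts the two-sided p was 0.2.
Among 9 other genes of heme and iron handling, all tested, 3 rose and 2 fell (55.6% called, beside 29.2% of all tested genes). SLC40A1, the iron exporter ferroportin, had the largest change, from 67.4 ± 4.54 to 149 ± 13.7 (log2 fold change 1.13, adjusted p = 1.72e-08). FTH1 and FTL, the heavy and light chains of ferritin that store iron, rose by 0.27 and 0.19, although FTL missed the threshold under quantile normalization (0.057, adjusted p = 0.239). BLVRB, which encodes a biliverdin and flavin reductase, fell from 1684 ± 112 to 1276 ± 8.68 (-0.40), and HMOX2, the constitutive heme oxygenase, fell by 0.29. Caki2+Vector A was the lowest control for HMOX1, FTH1, FTL and BLVRB, and without it the log2 difference of HMOX1 was -0.27 (adjusted p = 2.206e-07).

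SLC7A11, the light chain of the cystine and glutamate exchanger xCT that brings in cystine for glutathione (chr4:139085251-139163503, minus strand), rose. It had 8780, 8406 and 9010 normalized counts in the Caki2+Vector replicates and 9660, 9819 and 10056 in the Caki2+PBRM1 replicates. The groups did not overlap, with a log2 fold change of 0.17 (SE 0.033, with an adjusted p of 0.000161), or 12.8% higher. An antisense gene, SLC7A11-AS1, overlaps its exons by 865 bases, and was listed at 45.4 to 63.1 normalized counts.
GCLC and GCLM, the catalytic and modifier subunits of glutamate-cysteine ligase, which makes the first bond of glutathione, did not pass the test. GCLC (chr6:53362139-53481768, minus strand) had 2395, 2268 and 2251 normalized counts in the Caki2+Vector replicates and 2081, 2145 and 2202 in the Caki2+PBRM1 replicates. Its groups did not overlap, yet the log2 difference of -0.11 (SE 0.041, 95% interval -0.19 to -0.021) had an adjusted p of 0.0545. It passed without Caki2+Vector C (-0.12, adjusted p = 0.0462) and under quantile normalization (-0.14, adjusted p = 0.00886).
GCLM (chr1:94350755-94375012, minus strand) had 3631, 3618 and 3821 normalized counts in the Caki2+Vector replicates and 3659, 3650 and 3595 in the Caki2+PBRM1 replicates. The groups overlapped, and the 95% interval of the log2 difference ran from -0.097 to 0.054. The ratio of GCLC to GCLM counts was 0.625 ± 0.035 and 0.59 ± 0.022 (two-sided exact permutation p = 0.2).

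Of 29 further genes of glutathione synthesis and use, 24 were tested, 6 rose and 5 fell (45.8% called, beside 29.2% of all tested genes). GSTM3, a glutathione transferase, rose from 90.1 ± 12.2 to 211 ± 22.2 (log2 fold change 1.22, adjusted p = 8.953e-10), and GLRX, the glutaredoxin that removes glutathione from proteins, from 102 ± 6.0 to 232 ± 22 (1.18, adjusted p = 2.08e-10). GPX8, a peroxidase of the endoplasmic reticulum, rose by 0.31. Named after their values were seen, MGST2 (0.30), GSTM4 (0.27) and GGT1 (0.20) also rose. GSTM4 lost its call with DESeq2 (adjusted p = 0.147) and without the filter on low values (0.0528). Its call was also lost without Caki2+Vector B or C or Caki2+PBRM1 B or C (0.0563 to 0.124). GPX2, a selenium-dependent glutathione peroxidase of epithelia and a known NRF2 target, fell from 1846 ± 125 to 1246 ± 29.2 (-0.56, adjusted p = 1.568e-10). GSTA4, which conjugates the lipid aldehyde hydroxynonenal, fell by 0.48, and CHAC2, which degrades glutathione, fell by 0.40. The other genes that fell, named after their values were seen, were GGCT (-0.24), which acts in glutathione turnover, and glutathione synthetase GSS (-0.14). GSS lost its call with DESeq2 (adjusted p = 0.0896) and without Caki2+Vector B or any one Caki2+PBRM1 library (0.0676 to 0.112).

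TXNRD1, cytosolic thioredoxin reductase (chr12:104609557-104744085, plus strand), did not pass the test. It had 33207, 32603 and 33144 normalized counts in the Caki2+Vector replicates and 34640, 34171 and 34428 in the Caki2+PBRM1 replicates. Each Caki2+PBRM1 value lay above each control, but the log2 difference was only 0.06 (SE 0.026, 95% interval 0.0082 to 0.11, adjusted p = 0.0759). It passed without Caki2+Vector A (0.066, adjusted p = 0.0041) and under quantile normalization (0.11, adjusted p = 0.00465).
SRXN1, sulfiredoxin, which restores overoxidized peroxiredoxins (chr20:627259-633844, minus strand), had 5602, 5422 and 5620 normalized counts in the Caki2+Vector replicates and 5576, 5633 and 5691 in the Caki2+PBRM1 replicates. The groups overlapped, and the 95% interval of the log2 difference ran from -0.047 to 0.091.
Of 15 further thioredoxin and peroxiredoxin genes, 14 were tested, and 4 rose and 2 fell (42.9% called, beside 29.2% of all tested genes). TXNIP, which binds and inhibits thioredoxin, rose without overlap, with 887, 903 and 850 normalized counts in the Caki2+Vector replicates and 1745, 1766 and 1767 in the Caki2+PBRM1 replicates (log2 fold change 1.00, adjusted p = 9.59e-17). The methionine sulfoxide reductase MSRB3 rose by 0.34 and PRDX6, a peroxiredoxin that reduces phospholipid peroxides, by 0.26. MSRB1, another methionine sulfoxide reductase, fell by 0.30.
Thioredoxin itself, TXN, fell by 0.14 with overlapping groups, was at -0.09 without Caki2+Vector A (adjusted p = 0.0197), and lost its call without Caki2+Vector B (adjusted p = 0.0585), Caki2+PBRM1 B (0.1) or Caki2+PBRM1 C (0.0754). The last call, named after its value was seen, was that of PRDX1 (0.08, adjusted p = 0.0359), an abundant peroxiredoxin. It was lost with edgeR (0.078), DESeq2 (0.117) and quantile normalization (0.691), and without any one library other than Caki2+Vector A (0.0661 to 0.18). The ratio of TXNIP to TXN counts went from 0.138 ± 0.0075 to 0.302 ± 0.012.

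**Figure D3:**
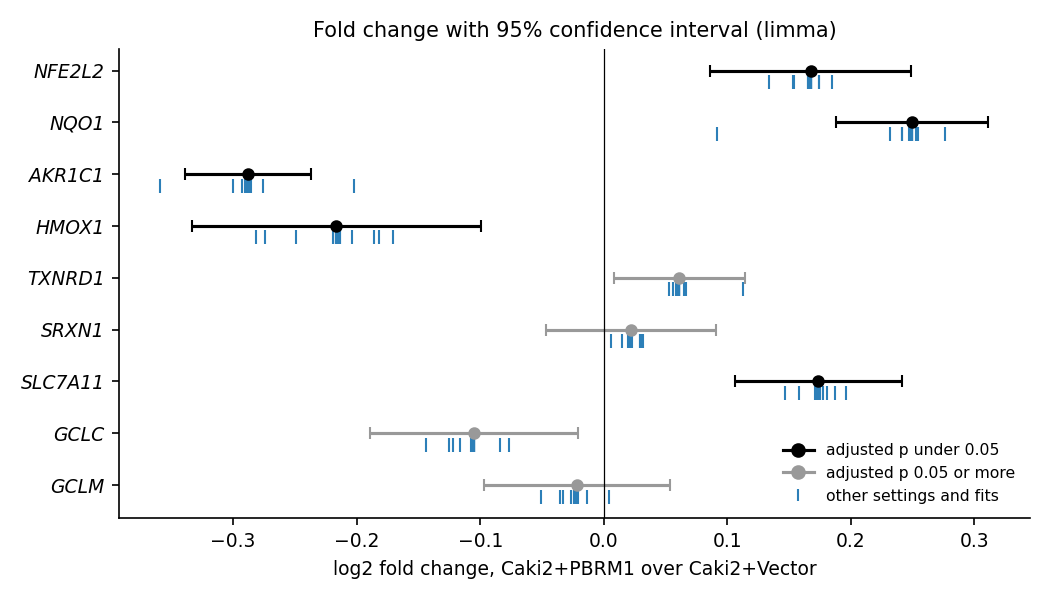
Log2 fold change (Caki2+PBRM1 over Caki2+Vector) of the 9 genes with its 95% interval from limma, in black for genes that passed the test and grey for the rest, with blue ticks for the values under the alternatives of processing. NQO1 at 0.25 and AKR1C1 at -0.29 are the ends of the range, and the intervals of GCLM and SRXN1 include 0.

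The transcript levels of the 9 genes differ widely, and can be compared between genes only per length. Per kilobase of the GENCODE canonical transcript, TXNRD1 (8545 ± 86.0 normalized counts) and AKR1C1 (8430 ± 143) were the highest in Caki2+Vector and overlapped in range. NQO1 (5876 ± 190), SRXN1 (2195 ± 43.4) and HMOX1 (1237 ± 89.5) followed, each separated from its neighbours. SLC7A11 (905 ± 31.6) and NFE2L2 (863 ± 13.8) nearly met, with the lowest sample of the former and the highest of the latter both at 871, and GCLM (756 ± 23.3) and GCLC (609 ± 20.8) were lowest.
In Caki2+PBRM1, AKR1C1 (6904 ± 41.6) and NQO1 (6985 ± 69.2) per kilobase stood together below TXNRD1 (8915 ± 60.8). The order depends on the length chosen, since the canonical transcripts of AKR1C1, SLC7A11 and GCLM, among others, are long beside their coding sequences. Per kilobase of coding sequence, AKR1C1 was highest in both groups, at 56924 ± 964 and 46615 ± 281, followed by NQO1 and TXNRD1, which stood at 18022 ± 582 and 16941 ± 170 in Caki2+Vector. By this measure HMOX1 (2225 ± 161 in Caki2+Vector) lay below SLC7A11 (5809 ± 203) and GCLM (4489 ± 139), and GCLC and NFE2L2 were lowest.
The 9 genes together took 1.45% of the counts of the control cells and 1.35% in Caki2+PBRM1, and their summed normalized counts were 127266 ± 827 and 122475 ± 592. The 7 targets other than AKR1C1 took 0.799% ± 0.0068 and 0.824% ± 0.0041 of the counts, 3.06% more in Caki2+PBRM1, and their summed normalized counts were 69996 ± 266 and 74933 ± 414, 7.05% more. Within this sum the means of NQO1, TXNRD1, SLC7A11 and SRXN1 were higher in Caki2+PBRM1, and those of HMOX1, GCLC and GCLM were lower.

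Over the 8 role lists, which add 105 genes of NRF2 control and redox metabolism, 97 were tested, and 27 rose and 19 fell. The share called was 47.4%, beside 29.2% of all tested genes and 44.4% of those with a mean normalized count of at least 1000. Listed genes such as KEAP1, GSTM3 and GLRX averaged less than 1000 in both groups, so the 44.4% is not matched to these lists. The median log2 fold change of the 97 genes was 0.007, and their median size, 0.14, was close to that of all tested genes. The lists include genes that are not known NRF2 targets, and nothing particular to them is read from these counts.

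**Figure D4:**
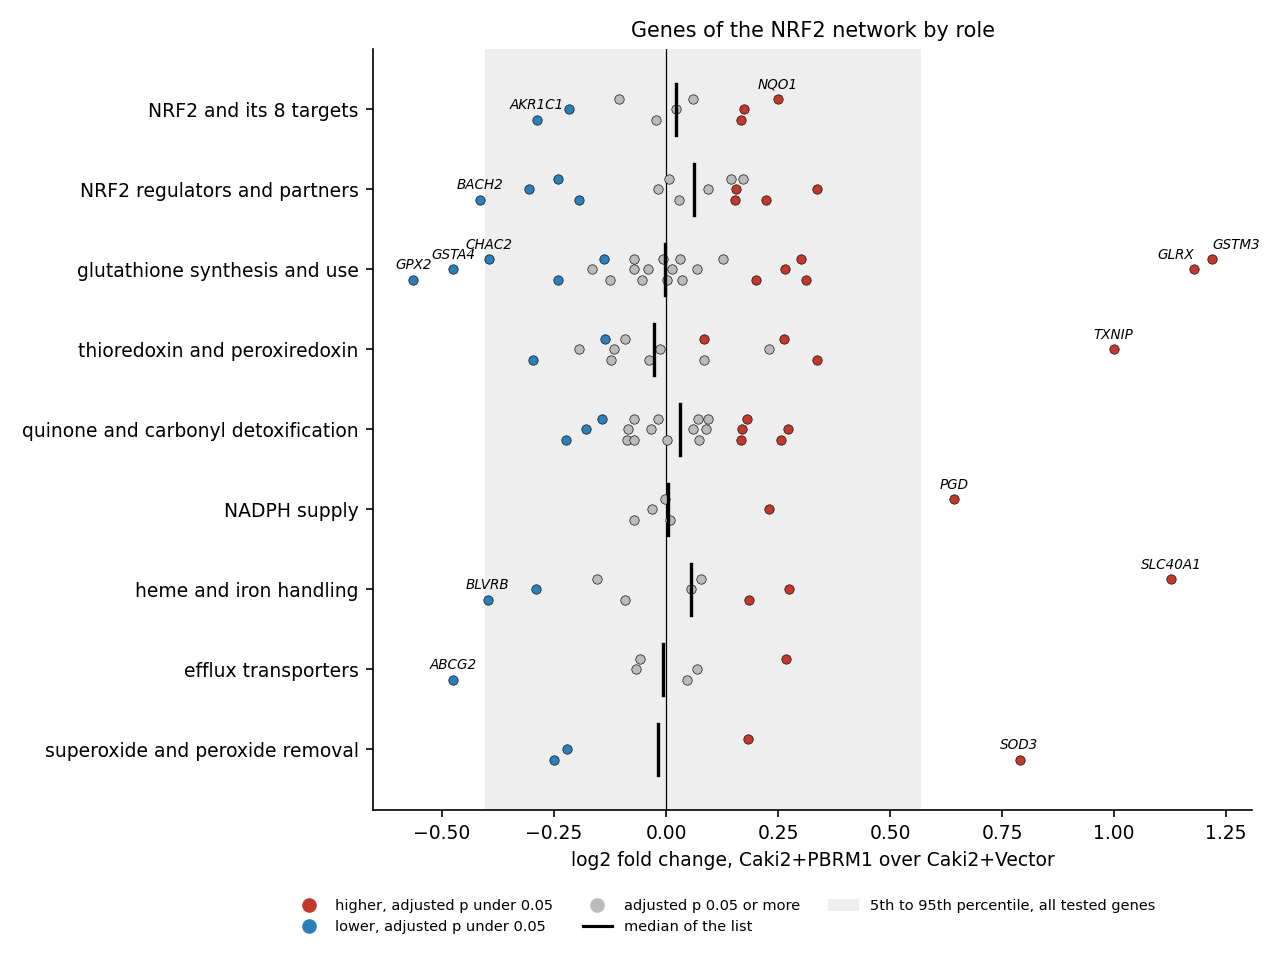
Log2 fold change of each tested gene by role, with red and blue points for genes that passed the test upward and downward, grey points for the rest, a bar at each list's median and a grey band for the 5th to 95th percentile of all tested genes (-0.40 to 0.57). The medians lie near 0, and GSTM3, GLRX, SLC40A1, TXNIP, SOD3 and PGD lie above the band, and GPX2, GSTA4, ABCG2 and BACH2 below it.

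Of 6 genes of NADPH supply, which feeds NQO1, TXNRD1 and glutathione reductase, 2 rose and none fell. That is 33.3% called, beside 29.2% of all tested genes. PGD, the phosphogluconate dehydrogenase of the pentose phosphate pathway, had 2755, 2864 and 2868 normalized counts in the Caki2+Vector replicates and 4372, 4385 and 4498 in the Caki2+PBRM1 replicates. The gap was wide relative to the spread (log2 fold change 0.64, adjusted p = 2.678e-14), and TALDO1, a transaldolase of the same pathway, rose by 0.23.
Of 6 efflux transporters, ABCC1, which exports glutathione conjugates, rose by 0.27, and ABCG2, a multidrug and urate exporter, fell by 0.48. Those 2 calls were 33.3% of the list, beside 29.2% of all tested genes. Of 4 genes of superoxide and peroxide removal, 2 rose and 2 fell, beside 29.2% of all tested genes called in either direction. The extracellular superoxide dismutase SOD3 rose from 493 ± 65.7 to 848 ± 50.3 (0.79, adjusted p = 2.291e-07), while the mitochondrial SOD2 and cytosolic SOD1 fell by 0.25 and 0.22. Catalase, CAT, rose by 0.18, but lost its call with DESeq2 (adjusted p = 0.126) and without Caki2+Vector C (log2 difference 0.12, adjusted p = 0.195), Caki2+PBRM1 A (0.114) or Caki2+PBRM1 B (0.129).

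Lists outside NRF2 control were read for comparison. Of 8 NADPH oxidase genes, which make superoxide, only 2 were tested and 1 was called, 50% beside 29.2% of all tested genes. CYBA, the membrane subunit p22phox, rose by 0.36. Caki2+Vector A (755) lay below the other controls (1002 and 1020), and without it the log2 difference was 0.22 (adjusted p = 4.829e-05). The call was lost without Caki2+PBRM1 C (adjusted p = 0.0603) and without the filter on low values (0.0627). Of 9 genes of the ATF4 response, which also drives SLC7A11, 2 fell and 1 rose (33.3% called, beside 29.2% of all tested genes). TRIB3, a pseudokinase induced by ATF4, fell from 1137 ± 56.7 to 933 ± 42.8 (-0.28, adjusted p = 8.248e-05). SESN2, a stress-induced leucine sensor, fell by 0.23, a call lost with DESeq2 (adjusted p = 0.122) and without any one library other than Caki2+Vector A and Caki2+PBRM1 B (0.0573 to 0.244), with a log2 difference of -0.15 without Caki2+PBRM1 C. CHAC1, a glutathione-degrading enzyme with few counts and named after its value was seen, rose by 0.66 (adjusted p = 0.0497). It lost the call in 6 alternatives of processing and without any one library other than Caki2+Vector A (0.0616 to 0.179).

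Genes with very low counts were not read as absent. PRDX2 and GSTP1, which most cells use, were listed at 1.2 to 3.8 and at 0 to 3.8 normalized counts.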

How the data were processed

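The authors mapped RNA-Seq reads with STAR (hg19) and obtained reads per gene from htseq-count (versions not given in the sources used here). The deposited values are a normalized signal per gene: all came out as whole reads (tolerance 0.001) once multiplied by a size factor per sample (0.834 to 1.191), which the methods credit to DESeq2. Members and gene lists were chosen with earlier results of these data known. log2(normalized count + 1) of 13303 genes with at least 10 in at least 3 samples was compared with limma 3.58.1 (trend and robust empirical Bayes, R 4.3.3) and Benjamini-Hochberg adjusted over all of them. Alternatives used edgeR 4.0.16, DESeq2 1.42.0 and voom on the recovered reads, and other filters, pseudocounts and normalizations. Besides the 9 genes, PBRM1, KEAP1, BACH1, MAFG, AKR1C2 and AKR1C3, up to 3 called genes per direction and list were named by size where the higher group averaged 50 or more. For NFE2L2, the 3 nearest profiles among genes with a mean of at least 100 were also named. The median SE over all tested genes, from the spread between replicates, was 0.083 (log2). Sequences came from GRCh37 with GENCODE and, for promoters, RefSeq on GRCh38.p14.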

Additional observations from a re-analysis of the deposited data

How the results depend on the processing

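Of 145 values of the 9 genes under alternatives of processing, 140 kept direction and side of the threshold, 4 passed it newly (GCLC and TXNRD1, given with those genes) and 1 turned: GCLM, at 0.0041 without Caki2+Vector C, in a range from -0.0354 upward when any one library was left out. Of the 9 genes, 5 to 6 were called when any one library was left out, and 7 under quantile normalization (4 up, 3 down). Over all tested genes, 3886 were called (2152 up, 1734 down), against 2553 with DESeq2 (1496 up, 1057 down), 2521 at an adjusted p under 0.01 and 2798 to 4154 without one library. In the wider network 46 were called, and 38 to 53 without one library. Under quantile normalization the balance of directions turned, to 1938 up and 2083 down over all genes and 23 up and 24 down (against 27 and 19) in the network, with the median of all genes moved to -0.0247. The cause of these shifts was not tested. Samples with the same letter did not deviate together (r 0.0059, -0.0077 and 0.0138), and r was -0.0243 to 0.0173 between different letters. No pairing by letter was seen. These correlations cannot exclude one, because the values were centred within groups of 3. With a term for the letter (replicate block), 4107 genes were called in all, 5 of the 9 and 48 of the network. GCLM and SRXN1 did not pass the test, and log2 differences inside their intervals (-0.097 to 0.054 and -0.047 to 0.091) were not excluded.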
